A study of Mus musculus with 17 samples.

Results

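The genes described are 10 genes of prohormone processing and of the secretory granule, found as the rows whose symbol equals Pcsk1, Pcsk2, Cpe, Pam, Scg2, Scg3, Scg5, Chga, Chgb or Pcsk1n. All 10 were in the table, which holds 15355 genes. Peptide hormones are made as inactive precursors that enter the secretory pathway. In the trans-Golgi network granins help to pack them into dense-core granules, and there prohormone convertases cut the chain at pairs of basic residues, a carboxypeptidase trims the basic residues left at the cut, and an amidating enzyme finishes many of the peptides. In POMC neurons, which curb appetite, this route turns the precursor pro-opiomelanocortin (Pomc) into alpha-MSH and beta-endorphin. Each gene was also set against Pomc in the same library.

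The RNA came from POMC RiboTag mice, in which a ribosomal protein carries an HA tag in the cells where the driver is or was active. Ribosomes were pulled down from homogenates of the mediobasal hypothalamus with an antibody to the tag, so the RNA is enriched for what those cells translate. Dams of the POMC RiboTag line were put on a 45% high-fat diet (HFD) or on standard chow at 6 weeks of age, were mated 4 weeks later, and stayed on that food until their pups were 21 days old. The groups were HFD offspring at postnatal day 21 (HFD P21, n = 4), chow offspring at day 21 (chow P21, n = 3), HFD offspring at day 0 (HFD P0, n = 5) and chow offspring at day 0 (chow P0, n = 5), all of the same RiboTag genotype. The labels number the samples as biological replicates. They name no animal, litter, pool or driver line, and every p-value below therefore reflects the spread among these 17 samples, which may be partly technical.

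Values are the authors' normalized units, close to CPM, and 3 reads correspond to 0.0826 to 0.138 units. Depth ran from 22.4 to 37.1 M (mega) counted reads per library. At P21 Pomc was among the most abundant genes, ranked 1 to 2 in HFD libraries and 1 to 4 in chow libraries. At P0 it ranked 77 to 2433 in HFD libraries and 64 to 1374 in chow libraries, so the transcript that defines the labelled cell type led the table at P21 and did not at P0. Pomc measured 9818, 8268, 7460.1 and 8528 units in HFD P21, 4679, 3878 and 12069.6 units in chow P21, 90.7, 246, 102, 181 and 1057 units in HFD P0, and 146, 224, 657, 891 and 1308 units in chow P0, in the order of the replicate numbers used for every gene below. HFD P0 replicate 5 stood apart from the other HFD P0 libraries, and chow P21 replicate 3 held the highest Pomc of all libraries. Chow P21 replicate 3 also had the lowest summed AgRP neuron markers at P21 (67.5 units, against 523.6 to 1007 in HFD P21), the highest summed oligodendrocyte markers (18280 units) and the highest Pitx1, a pituitary transcription factor, at 9.51 units against 0.14 to 2.54 in the other P21 libraries. Where leaving out either library changed a call among the 10 genes, the result is given with and without it.

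All 10 genes rose between P0 and P21 in HFD offspring, and 9 of 10 rose in chow offspring (limma on log2 of value + 1, Benjamini-Hochberg adjusted p under 0.05 over all genes tested). Of all genes tested, 24.7% rose with age in HFD offspring and 18.3% in chow offspring. In HFD offspring 3521 genes rose and 3729 fell, a split of 2851 and 4583 with column sums scaled to a common total, which also moved the median of all genes there to -0.21 and left all 10 genes called. The median log2 difference of the 10 genes was 1.55 in HFD offspring and 1.12 in chow offspring, against -0.05 and -0.01 for all genes tested. The exception was Scg3 in chow offspring. The age and the diet comparisons share libraries, so they are not independent of each other. The HFD calls of all 10 genes held in every alternative fit and with each library left out in turn. In bulk samples a change in the number of cells of a type and a change in RNA per cell cannot be told apart. Summed markers of other cells moved with age too. Those of oligodendrocytes ran from 4007 to 7316 units in HFD P21 against 335 to 463 in HFD P0, and from 8238 to 18280 in chow P21 against 437 to 1052 in chow P0. Astrocyte sums were 1268 to 2273 units in HFD P21 against 644 to 771 in HFD P0, and 2404 to 3792 in chow P21 against 638 to 949 in chow P0. Pan-neuronal sums overlapped between ages, at 10050.0 to 11740.0 units in HFD P21 and 10050.0 to 13190.0 in HFD P0. The part of these markers in the age differences was not tested.

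**Figure D1:**
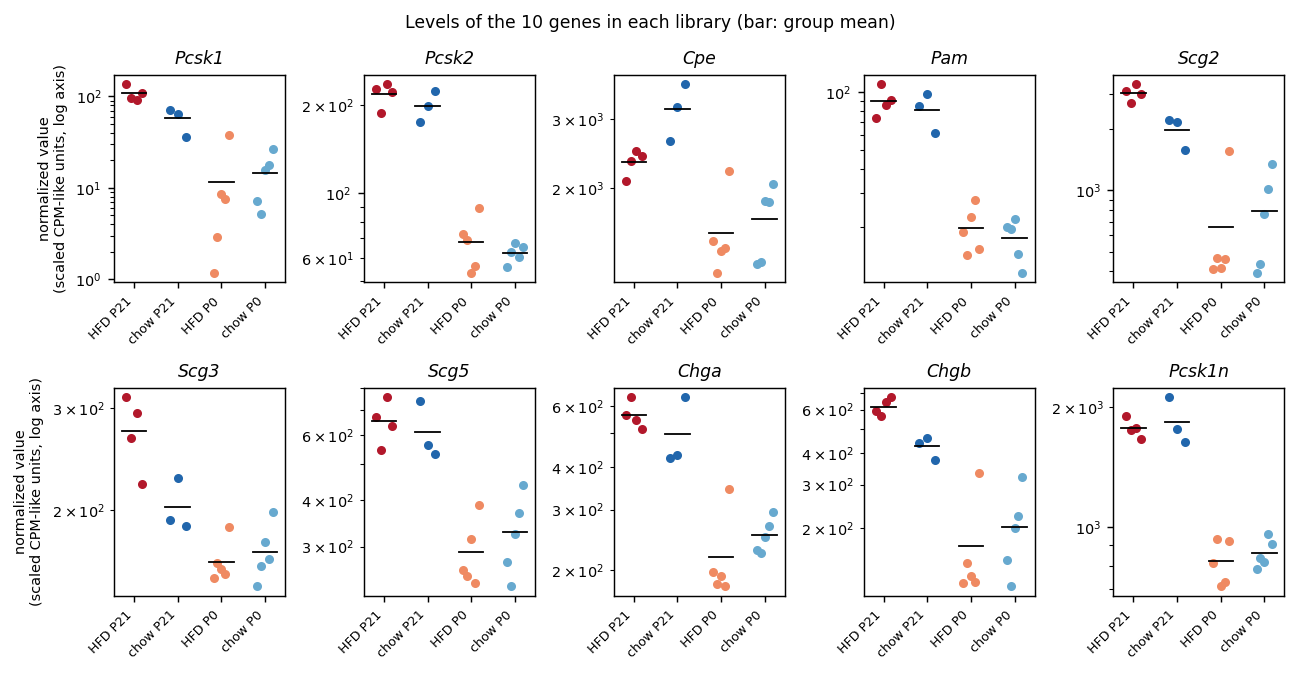
Normalized value of each gene in each library (log axis, scaled CPM-like units), by group, with a bar at the group mean. For Pcsk1, Scg2 and Chgb the 4 HFD P21 libraries lie above the 3 chow P21 libraries, and HFD P0 replicate 5 (rightmost point of its group) lies above the other HFD P0 libraries.

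Among the enzymes, Pcsk1 encodes prohormone convertase 1/3, which makes the first cuts in the Pomc precursor. Pcsk1 had 137, 96.4, 90.7 and 109 units in HFD P21, 71.6, 64.2 and 36.3 units in chow P21, 1.17, 2.88, 8.44, 7.61 and 37.5 units in HFD P0, and 7.25, 5.21, 15.6, 17.7 and 26.8 units in chow P0. All P21 libraries were above all P0 libraries of the same diet, and HFD P0 replicate 5 was the highest P0 library. The age difference in HFD offspring, a log2 difference of 3.82 (SE 0.59, adjusted p = 0.000126), was the steepest of the 10 genes there. In chow offspring it was 2.06 (SE 0.43, adjusted p = 0.00246).

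Pcsk2 encodes prohormone convertase 2, which makes the later cuts that release alpha-MSH precursors and beta-endorphin. It measured 228, 189, 237 and 223 units in HFD P21, 175, 199.8 and 224 units in chow P21, 72.5, 69.1, 53.3, 56.5 and 88.9 units in HFD P0, and 55.9, 63.0, 67.7, 60.5 and 65.5 units in chow P0. The diets overlapped at each age, and the ages were well apart. Pcsk2 rose with age by a log2 difference of 1.69 in HFD offspring (SE 0.17, adjusted p = 2.84e-06) and 1.65 in chow offspring (SE 0.14, adjusted p = 4.29e-06).

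Cpe encodes carboxypeptidase E, the trimming enzyme. Its values were 2094, 2349, 2488 and 2416 units in HFD P21, 2640.2, 3231 and 3696 units in chow P21, 1466, 1217, 1382, 1409 and 2220.4 units in HFD P0, and 1279, 1300.2, 1854, 1843 and 2054 units in chow P0. Cpe was the only one of the 10 whose ages overlapped in HFD offspring, through HFD P0 replicate 5. The age difference was 0.63 in HFD offspring (SE 0.19, adjusted p = 0.0122) and 0.95 in chow offspring (SE 0.23, adjusted p = 0.00648).

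Pam encodes peptidylglycine alpha-amidating monooxygenase, which puts the amide on the end of alpha-MSH. It had 73.3, 110.3, 85.5 and 91.3 units in HFD P21, 84.4, 97.7 and 61.4 units in chow P21, 18.9, 14.2, 22.4, 27.7 and 15.4 units in HFD P0, and 19.9, 19.5, 21.9, 14.4 and 11.5 units in chow P0. The P0 libraries with the most Pomc were not high for Pam, as chow P0 replicate 5 was the lowest of its group and HFD P0 replicate 5 lay below 3 of the other 4. Pam rose with age by 2.16 in HFD offspring (SE 0.22, adjusted p = 2.79e-06) and 2.16 in chow offspring (SE 0.24, adjusted p = 2.54e-05).

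A pair of the genes encode partners of the convertases. Scg5 encodes 7B2, the chaperone that proconvertase 2 needs to become active. Its values were 668, 546, 757 and 635 units in HFD P21, 739, 563 and 533 units in chow P21, 259.9, 249, 314, 239 and 388 units in HFD P0, and 273, 235, 325, 369 and 439 units in chow P0. The ages were apart within each diet. Scg5 rose by 1.18 in HFD offspring (SE 0.17, adjusted p = 7.29e-05) and 0.92 in chow offspring (SE 0.21, adjusted p = 0.00410). Pcsk1n encodes proSAAS, an inhibitor of prohormone convertase 1/3. It had 1898, 1749, 1776 and 1667 units in HFD P21, 2116, 1760.3 and 1638 units in chow P21, 815, 932, 712, 731 and 922 units in HFD P0, and 784, 836, 817, 964 and 907 units in chow P0. Libraries of a group lay close together for this gene. Its age difference was 1.12 in HFD offspring (SE 0.15, adjusted p = 3.99e-05) and 1.09 in chow offspring (SE 0.17, adjusted p = 0.000348).

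The granins are acidic proteins of the granule core. Scg2 encodes secretogranin II, the source of secretoneurin. Scg2 measured 3087, 2684, 3343 and 2986 units in HFD P21, 2223, 2180.0 and 1581 units in chow P21, 411, 466, 414, 459.7 and 1564 units in HFD P0, and 393, 434, 765, 1011 and 1352 units in chow P0. HFD P0 replicate 5 was 3.36 times as high as the next library of its group, and the ages were still apart. The age difference of Scg2 was 2.42 in HFD offspring (SE 0.33, adjusted p = 3.94e-05) and 1.48 in chow offspring (SE 0.36, adjusted p = 0.00614).

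Chgb encodes chromogranin B. It measured 592, 564, 642 and 673 units in HFD P21, 442, 463 and 376 units in chow P21, 121, 146, 129, 122 and 333 units in HFD P0, and 149.8, 117, 201, 225 and 323 units in chow P0. Its ordering of the libraries at P0 was close to that of Scg2. Chgb rose with age by 1.98 in HFD offspring (SE 0.25, adjusted p = 2.57e-05) and by 1.15 in chow offspring (SE 0.26, adjusted p = 0.00448).

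Chga encodes chromogranin A. Its values were 564, 637, 546 and 515 units in HFD P21, 424, 433 and 637 units in chow P21, 197, 182, 192, 179.7 and 344 units in HFD P0, and 229, 225, 250.3, 269 and 295 units in chow P0. Unlike Scg2 and Chgb, it was highest within chow P21 in replicate 3. Chga rose by 1.41 in HFD offspring (SE 0.19, adjusted p = 3.78e-05) and by 0.95 in chow offspring (SE 0.17, adjusted p = 0.000911).

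Scg3 encodes secretogranin III, which ties the granin core to the cholesterol-rich granule membrane. It had 314, 266, 295 and 222 units in HFD P21, 192, 227 and 188 units in chow P21, 152, 162, 158, 155 and 187 units in HFD P0, and 148, 160.0, 176, 164 and 198 units in chow P0. The chow ages overlapped. Scg3 rose by 0.74 in HFD offspring (SE 0.14, adjusted p = 0.000786), while the chow difference was 0.26 (SE 0.15, adjusted p = 0.190).

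Whole read counts could be recovered from the values of all 17 libraries, and edgeR's quasi-likelihood test on them gave the same age calls, 10 genes in HFD offspring and 9 in chow offspring. Pcsk1 was at 3.24 by edgeR in HFD offspring (adjusted p = 0.00243) and at 1.99 in chow offspring (adjusted p = 0.00442), and Scg3 was at 0.26 in chow offspring (adjusted p = 0.207). The chow comparison, with 3 P21 libraries, gave the same calls for the 10 genes with each library left out in turn.

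Whether the dam's diet shifted these genes at weaning is the question of the P21 comparison. None of the 10 passed the limma test between HFD P21 and chow P21, where 0.178% of the 14070 genes tested did (14 higher and 11 lower, or 13 and 22 with column sums scaled to a common total). Pcsk1, Scg2, Chgb, Scg3 and Cpe had an unadjusted p under 0.05, which is 5 of 10 genes, against 2393 of all genes tested. EdgeR on recovered reads called none of the 10 either, with 15 genes in all, and Pcsk1 at 0.90 (adjusted p = 0.129). The granins Scg2 and Chgb and the convertase Pcsk1 were higher in all 4 HFD P21 libraries than in any chow P21 library, and Cpe was lower. Non-overlap was thus seen in 4 of the 10 genes, against 16.1% of all genes tested. Scg2 averaged 3025 ± 272 units in HFD P21 and 1995 ± 359 units in chow P21 (SD, n = 4 and 3), a log2 difference of 0.61 (SE 0.16, adjusted p = 0.104). Chgb averaged 618 ± 48.8 units in HFD P21 and 427 ± 45.4 units in chow P21, a difference of 0.53 (SE 0.13, adjusted p = 0.101). Pcsk1 averaged 108 ± 20.6 units in HFD P21 and 57.3 ± 18.6 units in chow P21, a difference of 0.95 (SE 0.23, adjusted p = 0.102).

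In the other direction, Cpe averaged 2337 ± 172 units in HFD P21 and 3189 ± 529 units in chow P21, a difference of -0.44 (SE 0.15, adjusted p = 0.179). Scg3 was at 0.43 (SE 0.15, adjusted p = 0.187), with HFD P21 replicate 4 inside the chow range. The remaining genes ran from -0.05 for Pcsk1n to 0.21 for Chga. Without chow P21 replicate 3, none of the 10 passed either, with Pcsk1 at 0.65 (adjusted p = 0.339), Scg2 at 0.45 (adjusted p = 0.349), Chgb at 0.45 (adjusted p = 0.342) and Cpe at -0.32 (adjusted p = 0.478). Pomc was at 0.49 (adjusted p = 0.447) and at 0.99 without that library (adjusted p = 0.0498).

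Summed markers of other cells also differed between the diets at P21. The 11 oligodendrocyte markers summed to 4007 to 7316 units in HFD P21 against 8238 to 18280 in chow P21, the 9 astrocyte markers to 1268 to 2273 against 2404 to 3792, the 9 microglia markers to 151 to 215 against 258 to 414, and the 10 endothelial and mural markers to 57.7 to 91.8 against 112 to 161. All 4 sums were lower in every HFD P21 library, and none of these markers was at 0 in a P21 library. Of the single markers, limma called 1 of 9 for astrocytes, lower in HFD P21. It called 0 of 11 for oligodendrocytes, 0 of 9 for microglia and 0 of 10 for endothelial and mural cells. Non-overlap between these groups was seen in 16.1% of all genes tested. AgRP neuron markers summed to 523.6 to 1007 units in HFD P21 and 67.5 to 696 in chow P21. Their part in the values of the 10 genes was not tested.

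No difference with diet passed at birth. None of the 10 genes passed between HFD P0 and chow P0 in limma or in edgeR on recovered reads, and none had an unadjusted p under 0.05 in either, while limma called 0.291% of 14086 genes. The groups overlapped for all 10, against non-overlap in 2.45% of genes. Pcsk1 averaged 11.5 ± 14.9 units in HFD P0 and 14.5 ± 8.67 units in chow P0 (SD, n = 5 each), a log2 difference of -0.81 (SE 0.63, adjusted p = 0.734), or -0.36 by edgeR (adjusted p = 0.931). Scg2 averaged 663 ± 504 units in HFD P0 and 791 ± 403 units in chow P0 (-0.33, SE 0.39, adjusted p = 0.852). The median difference of the 10 genes was -0.14. These values rest on HFD P0 replicate 5. Without it Pcsk1 was at -1.39 (adjusted p = 0.164), Scg2 at -0.70 (adjusted p = 0.240), Chgb at -0.57 (adjusted p = 0.219) and Chga at -0.43 (adjusted p = 0.109), so that 4 of the 10 had an unadjusted p under 0.05, against 2440 of 14269 genes, and still none passed. Pomc was at -1.16 in all libraries (adjusted p = 0.621) and at -1.74 without that library (adjusted p = 0.112).

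**Figure D2:**
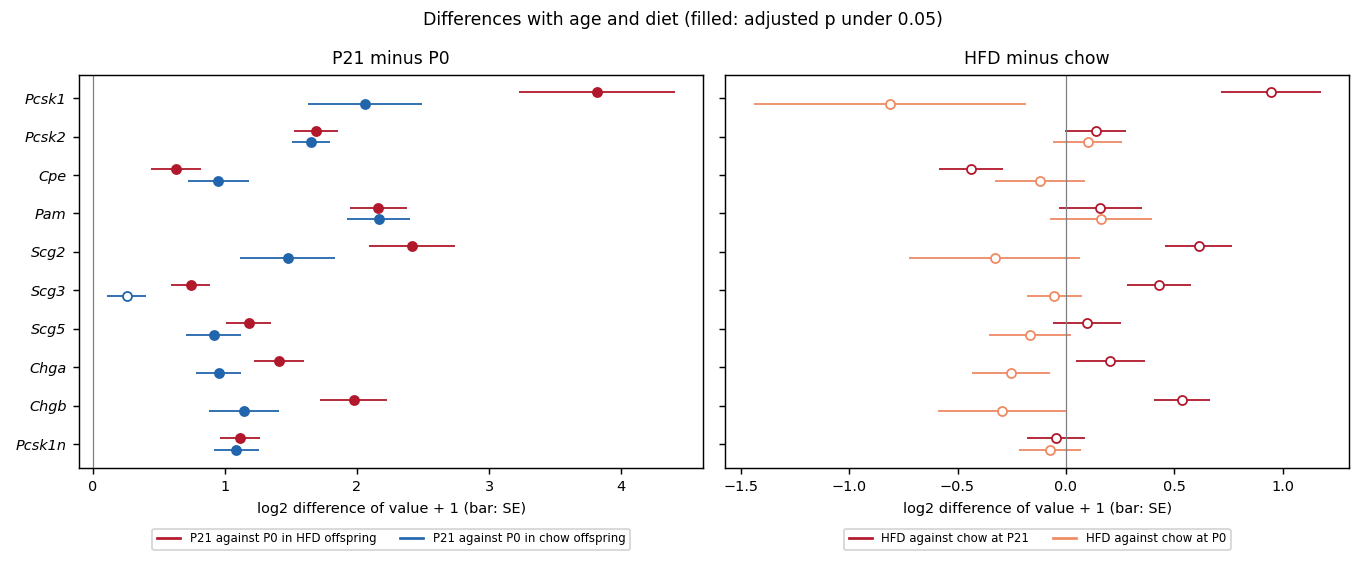
Log2 differences (value + 1) with their SE, P21 minus P0 in HFD and chow offspring on the left and HFD minus chow at P21 and P0 on the right. Filled points passed an adjusted p of 0.05, which 10 genes did with age in HFD offspring, 9 in chow offspring and none with diet.

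Whether the age difference itself depended on diet was tested as a diet by age term over all 17 libraries. It called none of the 10 genes, and 0.0266% of 15037 genes. Pcsk1 (1.76, SE 0.84, adjusted p = 0.328) and Scg3 (0.48, SE 0.20, adjusted p = 0.255) had an unadjusted p under 0.05. EdgeR on recovered reads also called none of the 10, with 14 genes in all and Pcsk1 at 1.23 (adjusted p = 0.583). One library decides the outcome for a pair of genes. Without HFD P0 replicate 5, Pcsk1 (2.34, adjusted p = 0.0448) and Chgb (1.10, adjusted p = 0.0458) passed, with 557 genes in all.

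Pomc itself differed 14.4-fold between the highest and the lowest P0 library, which allowed the genes to be followed along it. In a limma fit of log2 of value + 1 on log2 of Pomc + 1 over the 10 P0 libraries, with diet as a term, 6 of the 10 genes had a positive slope past the threshold, against 11.6% of all genes tested. EdgeR on recovered reads called the same number, 6 of 10. In chow P0 Pomc rose with the replicate number. That number was added to the limma fit as a block term, with a separate level for each replicate number and not as a trend. This left 3 residual degrees of freedom, against 7 in the fit without it. With the block term 0 of the 10 genes passed, and 16 of 14085 genes in all did. In the fit without that term the slopes were 0.76 for Pcsk1 (SE 0.16, adjusted p = 0.00467), 0.56 for Scg2 (SE 0.05, adjusted p = 5.10e-05), 0.39 for Chgb (SE 0.06, adjusted p = 0.000564), 0.20 for Cpe, 0.18 for Scg5 and 0.18 for Chga. A slope of 0.56 means that Scg2 was 1.47 times as high for each doubling of Pomc. Scg3 (0.09), Pcsk2 (0.10) and Pcsk1n (0.08) did not pass, and Pam had a slope of -0.16 that did not pass (SE 0.08, adjusted p = 0.186). The highest P0 library was 1.35 times the lowest for Pcsk1n and 32.1 times the lowest for Pcsk1.

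HFD P0 replicate 5, with Pomc at 1057 units, carries part of this relation. Without it 2 of the 10 genes passed, Scg2 and Chgb, and Pcsk1 was at 0.56 (adjusted p = 0.142). Over all genes, fits with 1 library left out called 290 to 3685. Scg5 was also lost without chow P0 replicate 1, 2 or 5. Markers of choroid plexus and ependyma were uneven at P0, with sums from 51.8 to 603 units in HFD P0 and from 44.4 to 1180.0 units in chow P0, and AgRP neuron marker sums ran from 73.7 to 206 units in HFD P0, highest in replicate 5, and from 74.9 to 161 units in chow P0. Their part in the slopes was not tested.

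**Figure D3:**
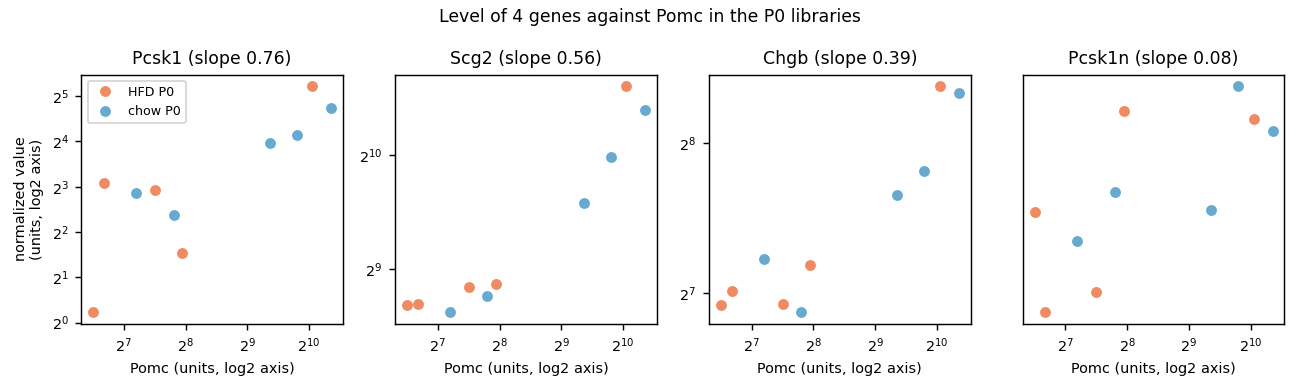
Normalized value of Pcsk1, Scg2, Chgb and Pcsk1n against Pomc in the 5 HFD P0 and 5 chow P0 libraries (both axes log2). The slopes are 0.76, 0.56 and 0.39 for the first 3 genes and 0.08 for Pcsk1n, and the HFD P0 library at 1057 units of Pomc is replicate 5.

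Promoters of the genes were read because several of them moved together. RefSeq windows (GRCm38.p6) from 250 bases before to 50 after the start were in the table for 9 of the 10 genes, all but Cpe. In all 6 motifs were searched on both strands. The cyclic AMP response element TGACGTCA, the palindrome bound by CREB and ATF factors, was in the windows of 3 of the 9 genes, Pcsk1, Scg2 and Chgb, and in 1.79% of 32851 promoters. These are the 3 genes with the steepest slopes on Pomc at P0 and the 3 that were higher without overlap in HFD P21, where none of them passed. Both patterns were known before the windows were read, and a link between the element and either was not tested. Shown are the 30 bases around each element and around the short element of Chga, 5′ to 3′ on the strand of the gene, with the element in capitals.
Pcsk1, chr13:75089768-75089797, + strand: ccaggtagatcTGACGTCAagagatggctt
Scg2, chr1:79440076-79440105, − strand: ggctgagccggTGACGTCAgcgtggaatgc
Chgb, chr2:132781559-132781588, + strand: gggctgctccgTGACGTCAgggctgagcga
Chga, chr12:102554885-102554914, + strand: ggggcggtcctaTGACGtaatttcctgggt
Counted from the RefSeq start, the element lies 78 to 71 bases upstream in Pcsk1, 68 to 61 in Scg2 and 72 to 65 in Chgb, and the short element lies 44 to 40 bases upstream in Chga. In the GENCODE M21 annotation of the same assembly the Scg2 and Chgb stretches fall in an exon of the gene itself, whose longest model starts farther upstream, and those of Pcsk1 and Chga fall in no exon. The short element TGACG, which the full element contains, was in 7 of the 9 windows (Chga, Chgb, Pcsk1, Pcsk2, Scg2, Scg3 and Scg5) and in 20.8% of promoters. The GC box GGGCGG was in 7 of 9 against 35.7%, CAGCTG, an E-box, in 4 of 9 against 16.3%, and TATAAA in 1 of 9, Chga, against 13.6%. The RE1 motif of the repressor REST, searched as 1 nearly fixed string of letters, was in none of the 9 and in 0.00304% of promoters. A string this rare cannot show whether the windows hold RE1 sites. A match is a description of these letters, and no binding was measured.

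Set against Pomc in the same library, the genes took another course with age. Units of Pcsk1 per 100 units of Pomc were 1.39, 1.17, 1.22 and 1.28 in HFD P21, 1.53, 1.66 and 0.30 in chow P21, 1.29, 1.17, 8.26, 4.20 and 3.55 in HFD P0, and 4.95, 2.33, 2.37, 1.99 and 2.04 in chow P0. The highest HFD P21 library was 1.20 times the lowest, and chow P21 replicate 3 was far below the rest. Pcsk1 averaged 1.26 ± 0.10 per 100 Pomc in HFD P21 and 3.69 ± 2.88 in HFD P0 (SD, n = 4 and 5). Relative to Pomc it was at -1.49 on the log2 scale (SE 0.81, adjusted p = 0.0676) in HFD offspring and -1.59 (SE 1.00, adjusted p = 0.113) in chow offspring, and it passed in neither diet. The HFD value passed with no moderation of the variance (adjusted p = 0.0196), and in the moderated fit without HFD P0 replicate 1 (-1.64, adjusted p = 0.0418) and without HFD P0 replicate 5 (-1.48, adjusted p = 0.00125).

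In HFD offspring 9 of the 10 genes were lower relative to Pomc at P21 than at P0, and in chow offspring 8 were, against 99.6% and 95.8% of all genes, so nearly every transcript shared this fall. The chow count rests on chow P21 replicate 3, as 4 of the 10 passed without it (Cpe, Scg3, Scg5 and Chga), with the median of all genes at -3.16. Fits with 1 library left out called 12567 to 14144 of all genes in chow offspring. The median of the 10 genes was -3.76 in HFD offspring against -5.36 for all genes tested, and -2.53 in chow offspring against -3.66. Cpe, the gene with the deepest fall in HFD offspring, averaged 27.9 ± 4.94 units per 100 Pomc in HFD P21 and 890.0 ± 586 in HFD P0 (-4.68, adjusted p = 3.53e-10). Scg2 averaged 35.9 ± 6.11 in HFD P21 and 290 ± 134 in HFD P0 (-2.89, adjusted p = 8.42e-05). Pcsk1n averaged 21.0 ± 2.07 in HFD P21 and 493 ± 313 in HFD P0 (-4.19, adjusted p = 1.40e-08). All these ratios share the error of the Pomc measurement, and limma then gave the shared variance an unbounded weight, so exact permutation tests over libraries were run as well. In HFD offspring each of the 10 genes gave an exact permutation p = 0.0159, two-sided, the smallest p the design allows. For Pcsk1 that value rests on the pseudocount, because its level was near 1 unit in HFD P0 replicate 1 and its plain ratios overlap between the ages. Without a pseudocount Pcsk1 was at -1.17 in HFD offspring (exact permutation p = 0.143, two-sided), and the other 9 genes kept the same p. In chow offspring 8 genes gave p = 0.0357, again the smallest possible, with Pcsk2 at p = 0.0714 and Pam at p = 0.25 in the exact test.

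**Figure D4:**
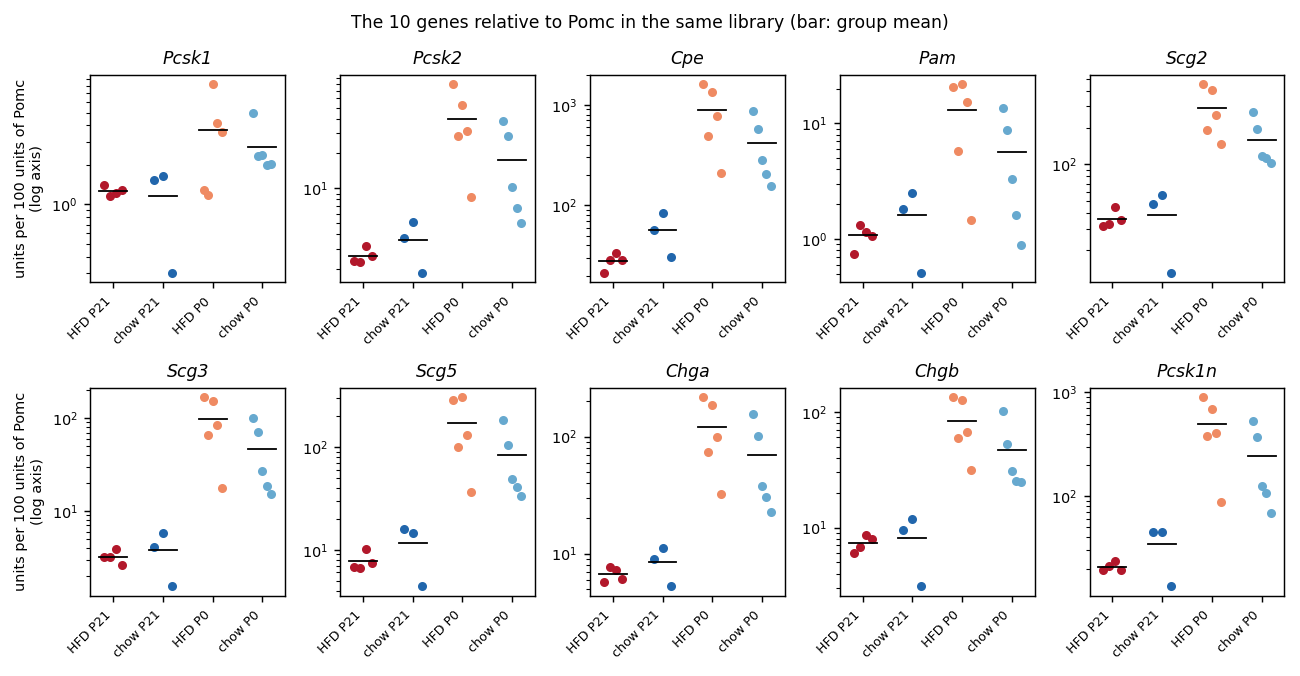
Units of each gene per 100 units of Pomc in the same library (log axis), by group, with a bar at the group mean. Ratios at P21 lie below those at P0 for most genes, while those of Pcsk1 overlap between the ages in HFD offspring. Chow P21 replicate 3 is the lowest P21 library for 9 of the genes.

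Between diets the ratios did not differ past the threshold. At P21 none of the 10 genes passed relative to Pomc, with 0 at an unadjusted p under 0.05 and 0.0142% of genes called, and exact permutation p-values ran from 0.114 to 0.914, two-sided, where 0.0571 is the smallest possible. Cpe averaged 27.9 ± 4.94 units per 100 Pomc in HFD P21 and 56.8 ± 26.4 in chow P21 (-0.93, SE 0.53, adjusted p = 0.515). This outcome rests on chow P21 replicate 3. Without it 9 of the 10 genes were lower relative to Pomc in HFD P21, from -1.32 for Cpe (adjusted p = 0.00226) to -0.54 for Scg2 (adjusted p = 0.0446), while Pcsk1 was at -0.34. Most of the table shared this shift, as 11498 of 14279 genes were called, 11493 of them lower, with the median of all genes at -1.02. At P0 none passed and none had an unadjusted p under 0.05, with 0.0% of genes called (210 had an unadjusted p under 0.05), and exact permutation p-values ran from 0.0873 to 0.508. All 10 lay above 0 there, with a median of 1.02 against 1.16 for all genes tested. Without HFD P0 replicate 5 still none passed, 4 of the 10 had an unadjusted p under 0.05, as did 8910 of 14268 genes, and the median of all genes was 1.73.

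Levels can be compared between genes only per length. The length used here counts every base in any annotated exon of a gene, 11892 for Pam, 7910 for Pcsk2 and 5604 for Pcsk1. A main transcript shorter than that length would place its gene higher, so the order depends on this choice. Before division Pam averaged 90.1 units and Pcsk1 108 units in HFD P21. Divided by the exonic length in GENCODE M21, the order in HFD P21 was Scg2 at 1203 ± 108 units per kb, Cpe at 896 ± 65.7, Pcsk1n at 808 ± 43.8, Scg5 at 415 ± 55.7, Chgb at 226 ± 17.8, Chga at 205 ± 18.8, Scg3 at 100.1 ± 14.5, Pcsk2 at 27.7 ± 2.67, Pcsk1 at 19.3 ± 3.67 and Pam at 7.58 ± 1.30 (mean ± SD, n = 4). Cpe and Pcsk1n overlapped, as did Chgb and Chga, and Pcsk2 and Pcsk1. In chow P21 Cpe came first at 1222 ± 203 units per kb, followed by Pcsk1n at 838 ± 113 and Scg2 at 793 ± 143, which overlapped. At P0 Cpe was first in both diets, at 590 ± 150 units per kb in HFD P0 and 639 ± 136 in chow P0, and Pcsk1 and Pam were last. Pcsk1 stood at 2.06 ± 2.65 units per kb in HFD P0 and 2.59 ± 1.55 in chow P0, below Pcsk2 at 8.60 ± 1.79 and 7.90 ± 0.58 in the same groups. Pomc stood at 6463 ± 742 units per kb in HFD P21 and 254 ± 310 in HFD P0. In GENCODE M21, Pcsk1n shares 6.16% of its exonic bases with Eras and Pcsk2 shares 4.54% with noncoding genes, both on the opposite strand. Pam shares 1.58% with the gene model B230216N24Rik, which runs the same way. The annotation used in the authors' counting is not given here. The other genes share none.

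Other genes of the route were counted by role, beside the 24.7% of all genes that rose and the 26.2% that fell in HFD offspring, and the 18.3% that rose and 17.7% that fell in chow offspring. Of 22 other prohormone processing enzymes tested, 7 rose and 5 fell with age in HFD offspring, and of 23 in chow offspring 5 rose and 2 fell. Qpct, which forms the pyroglutamate end of some peptides, rose by 2.67 in HFD offspring and 1.71 in chow offspring. Ctsb, cathepsin B, rose by 1.54 in HFD and 1.20 in chow offspring, and Spcs1, a subunit of the signal peptidase, rose by 1.00 in HFD and 0.68 in chow offspring. Prep, prolyl endopeptidase, fell, at -1.28 in HFD and -1.57 in chow offspring, as did Ide, the insulin-degrading enzyme, at -1.10 in HFD and -0.60 in chow offspring.

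Of 39 other genes of granule biogenesis and release tested, 27 rose and 3 fell with age in HFD offspring, and 18 rose and 1 fell in chow offspring. Ptprn, the granule membrane protein IA-2, rose by 3.20 in HFD and 2.72 in chow offspring. Resp18, a granule protein of neuroendocrine cells, averaged 2451 units in HFD P21 and 262 units in HFD P0 and rose by 3.22. Sytl4, granuphilin, rose by 3.86 in HFD offspring. Unc13a, a priming factor of synaptic vesicles, was at -2.39 in HFD offspring, and Stx1a, a plasma membrane SNARE, at -0.54 in HFD and -1.13 in chow offspring.

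Of the precursors that the enzymes act on, 20 of 30 rose and 1 fell in HFD offspring, and 18 of 32 rose in chow offspring. Cartpt, the precursor of CART, averaged 2275 units in HFD P21 and 13.4 units in HFD P0 and rose by 7.33. Tac2, the neurokinin B precursor, rose by 4.79 in HFD and 3.79 in chow offspring. Vgf, a granule protein and peptide precursor, rose by 3.48 in HFD and 2.19 in chow offspring. Pnoc, the nociceptin precursor, was at -0.71 in HFD offspring. With diet at P21, Cartpt was the 1 precursor of 31 that passed, higher by 1.91 (SE 0.23, adjusted p = 0.0137), and no other processing enzyme or granule gene passed. The Cartpt call depended on the fit. With no intensity trend 1 gene passed in all, and it was lower in HFD P21, so Cartpt did not pass. Along Pomc at P0, 15 of 39 granule genes had a positive slope and 1 a negative one, against 11.6% and 8.12% of all genes. Baiap3, a granule trafficking protein, led them at 0.74. Of 28 precursors 5 had a positive slope and 7 a negative one, and of 23 other processing enzymes 5 and 0. Of 17 transcription factors 3 had a positive slope, among them Tbx3 at 1.04 and Isl1 at 0.52. A negative slope was called for 1 of them, Neurod1, at -0.31.

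The 10 genes also differed in how they followed one another within groups. Over the 17 libraries, Pearson's r between deviations from the group mean of log2 of value + 1 was highest for Scg2 with Chgb, at 0.964. Scg2 had r = 0.849 with Pomc, Chgb 0.823, and Pcsk1 had r = 0.853 with Scg2. Pam ran against the others, with r below 0 for every pairing, from -0.622 with Pomc to -0.186 with Pcsk1. These points share library, depth and cell makeup, and r is given as a description. Of 10115 genes with a mean of at least 10 units, Sf3b2, a splicing factor subunit, was most like both Scg2 (r = 0.977) and Chgb (r = 0.977), Arfgap2, a COPI coat regulator, most like Pcsk1 (r = 0.952), Usp33, a deubiquitinase, most like Cpe (r = 0.951), and Hrh3, the histamine H3 receptor, most like Pam (r = 0.835).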

How the data were processed

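For 17 libraries and 15355 genes the authors deposited a normalized signal, CPM-like and rounded to 2 decimals, with no raw counts. Per the labels' protocols, Nextera XT libraries were read on a HiSeq instrument as single 50-base reads. The submitters' processing notes name FastQC, TopHat2 (2.0.13), Picard (1.80), HTSeq (0.6.1), edgeR and the mm10 build. No source used here gives a strand setting. The step that 1 read makes in the deposited signal gave the depth of each library. In each of the 17 libraries 98.6% to 99.99% of values were whole multiples of that step within the rounding of the deposited decimals, where values unrelated to it would give 21.8% to 36.4%. EdgeR 4.0.16 was run on these reads, as counts had been foreseen. Other tests used limma 3.58.1 (R 4.3.3) with an intensity trend on log2 of value + 1, for genes above 1 unit in at least the number of libraries of the smaller group. They were two-sided, with Benjamini-Hochberg adjustment over all genes and a threshold of 0.05. The comparisons between groups, and a slope fit with no slope present, were tried on simulated data with the same dispersion for all genes. The P0 libraries may be more uneven than that. The diet by age term and the fits relative to Pomc were not simulated. Gene minus Pomc was fitted in the same way. Alternatives changed the pseudocount (0.5), filter, trend, scaling, joint fit, replicate block and libraries kept. An unmoderated fit, edgeR for the diet by age term and the slopes, the use of all libraries in edgeR and permutation tests of the ratio to Pomc without a pseudocount were added after seeing the data. All 10 genes are named, with at most the 3 called genes of smallest p in each direction from each other list and the genes of most like pattern. The 10 genes and the lists were chosen with earlier results of these data known. The number of per-sample columns left unused is 0. The limit of 3 reads covers counting error only. Of the pituitary markers, Pitx1 alone is reported here.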

Additional observations from a re-analysis of the deposited data

Results flagged for a closer look

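In 63 groups of values (each gene and each ratio to Pomc, in groups of 4 or 5 libraries), 4 had an end library whose gap to its nearest neighbour, as a share of the range of the group on the log2 scale of value + 1, exceeded Dixon's 95% critical value, where chance gives about 1 in 20. In HFD P0 replicate 5, Scg2 was at 1564 units, Chga at 343.5 units and Chgb at 333.2 units, each above the other 4 libraries of the group. Pcsk1 stood at 4.95 units per 100 units of Pomc in chow P0 replicate 1, above the other 4 chow P0 libraries.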

How the results depend on the processing

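All 10 genes kept their age call in HFD offspring in every alternative and with every library left out. In chow offspring the number called, 9, was the same in all of them. Calls over all genes moved more. HFD against chow at P21 gave 25 genes, but 16 with no filter, 1 with no trend, 3 with the replicate block and 15 with edgeR, and 3 to 51 with 1 library left out. HFD against chow at P0 gave 41, but 10 in the joint fit, 104 with the replicate block, and 18 to 135 with 1 library left out. The diet by age term gave 4, but 2 with no trend, 9 with column sums scaled, 133 with the replicate block, 14 with edgeR, and 2 to 557 with 1 library left out (0 to 2 of the 10 genes). Relative to Pomc at P21, 2 genes became 22 with a pseudocount of 0.5, 17 with no filter, 47 with no trend, 0 in the joint fit, 0 unmoderated, 0 with the replicate block, and 0 to 11498 with 1 library left out (0 to 9 of the 10). Relative to Pomc at P0, 0 became 0 to 43, in chow offspring 8 of the 10 genes with age became 4 (without P21 replicate 3) to 9 (without P0 replicate 5), 7 unmoderated and 10 with the replicate block, and in HFD offspring 9 became 10 in each of the last 2. Slopes on Pomc were called for 0 of the 10 genes with the replicate block (16 genes in all, against 2771 without it), for 4 with no trend, and for 2 to 6 of the 10 (290 to 3685 genes) with 1 library left out. Without a pseudocount in the ratio to Pomc, the exact permutation test of Pcsk1 with age in HFD offspring no longer passed, and the other 39 such tests stayed on their side of the threshold. The replicate numbers were not taken as pairs, since the deviations of same-numbered samples from their group means correlated, across genes, at -0.23 to 0.569. Values near 0 changed sign. With 1 library left out, the P21 diet difference ran from -0.027 to 0.30 for Pam and from -0.12 to 0.060 for Pcsk1n, and the P0 difference from -0.000712 to 0.18 for Pcsk2 and from -0.10 to 0.0056 for Scg3. The diet by age term ran from -0.054 to 0.14 for Pcsk2, -0.19 to 0.14 for Pam and -0.052 to 0.13 for Pcsk1n, and was -0.065 for Pcsk2 and -0.076 for Pcsk1n with column sums scaled and 0.015 for Pam with median-of-ratios scaling. Relative to Pomc at P21, the range was -0.34 to 0.88 for Pcsk1, -1.02 to 0.13 for Pam, -0.54 to 0.51 for Scg2, -0.61 to 0.34 for Scg3 (0.037 with the replicate block) and -0.55 to 0.42 for Chgb, lowest without chow P21 replicate 3 and highest without chow P21 replicate 2 in each. The causes were not tested. Depth limits values near 0.138 units, the highest 3-read limit, far below the 10 genes.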
